A study of Mus musculus with 69 samples.

Results

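The genes described here are numbered zinc finger protein genes of the mouse, those whose symbol is Zfp and a number, without Zfp36 and Zfp777. A member had to reach a mean of at least 5 TPM (a transcript's share of all transcripts in a library, scaled to a fixed total) in cortical collecting ducts of sham-operated mice at 24 h. Of 52404 genes listed in all 4 deposited tables, 373 carry such a symbol and 246 of these reached the threshold; the other 127 stayed under it. The members were thus chosen by the sham levels of that table, which are given as a description. Just inside the threshold were Zfp101 at 5.06 TPM, Zfp296 at 5.21 TPM and Zfp775 at 5.23 TPM, and just outside it were Zfp608 at 4.98 TPM, Zfp667 at 4.97 TPM and Zfp108 at 4.92 TPM.

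The study followed the kidney that remains after the other one has been removed, a setting in which the remaining kidney grows. All animals were male wild-type C57BL/6 mice operated on at 7 weeks of age, undergoing a sham procedure or removal of 1 kidney (unilateral nephrectomy, UNx). At 24 h or 72 h 2 tubule segments were microdissected. They were the S1 part of the proximal tubule (PT-S1), which takes back most filtered solutes, and the cortical collecting duct (CCD), a mixed epithelium of principal and intercalated cells. PolyA RNA was amplified with a kit for very small inputs and sequenced. Several libraries were made from most animals, and the animal is the replicate here. The groups held 3 sham animals (8 libraries) and 4 UNx animals (9 libraries) in PT-S1 at 24 h, and 5 (12) and 5 (12) at 72 h. For CCD they held 4 (8) and 3 (7) at 24 h, then 4 (7) and 4 (6) at 72 h.

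Proteins with C2H2 zinc fingers are the most numerous class of DNA-binding proteins in mammals. Each finger, a short loop held by a zinc ion between a pair of cysteines and a pair of histidines, can read a few bases of DNA. Many of them carry a KRAB domain near the start of the protein, which recruits the co-repressor Trim28 (KAP1) and, through it, the histone methyltransferase Setdb1, heterochromatin protein and the NuRD complex. These silence retroelements, imprinted regions and some genes. Others have no KRAB domain and work as activators, as parts of chromatin complexes, or on RNA and the mitotic spindle. The genes stand in clusters that grew by local duplication.

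The sequences upstream of 3 members, picked by their change in expression, are given as examples and not as typical of the set. The 3 are the member called in CCD at 72 h (Zfp367, ENSMUSG00000044934), the called member with the largest change in CCD at 24 h (Zfp871, ENSMUSG00000024298), and the next one there (Zfp458, ENSMUSG00000055480). Each runs from 250 bases before to 50 bases after a transcript start, from RefSeq on build GRCm38.p6, written 5′ to 3′ along the gene. All 3 genes lie on the minus strand, and for Zfp367 and Zfp871 it is the first of 2 listed starts. Capitals mark matches to 5 short motifs searched on both strands: CCAAT, the binding core of NF-Y, which reads ATTGG on the other strand; the palindrome TCGCGA; the ETS-type motif CCGGAAG, which reads CTTCCGG on the other strand; the motif known from YY1 sites, ATGGCGG; and that known from Zfp143 sites, ACTACAA.
Zfp367, chr13:64153150-64153449, minus strand: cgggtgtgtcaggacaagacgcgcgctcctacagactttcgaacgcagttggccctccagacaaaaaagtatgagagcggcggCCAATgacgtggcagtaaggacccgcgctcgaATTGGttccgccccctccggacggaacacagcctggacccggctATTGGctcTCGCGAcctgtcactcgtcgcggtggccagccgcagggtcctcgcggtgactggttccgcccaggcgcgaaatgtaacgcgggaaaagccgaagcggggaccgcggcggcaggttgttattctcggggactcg
Zfp871, chr17:32788238-32788537, minus strand: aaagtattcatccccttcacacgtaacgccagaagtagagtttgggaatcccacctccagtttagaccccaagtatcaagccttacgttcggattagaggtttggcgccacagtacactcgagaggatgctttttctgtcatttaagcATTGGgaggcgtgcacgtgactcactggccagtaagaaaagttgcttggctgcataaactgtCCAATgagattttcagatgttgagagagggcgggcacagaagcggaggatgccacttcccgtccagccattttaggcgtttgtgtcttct
Zfp458, chr13:67268945-67269244, minus strand: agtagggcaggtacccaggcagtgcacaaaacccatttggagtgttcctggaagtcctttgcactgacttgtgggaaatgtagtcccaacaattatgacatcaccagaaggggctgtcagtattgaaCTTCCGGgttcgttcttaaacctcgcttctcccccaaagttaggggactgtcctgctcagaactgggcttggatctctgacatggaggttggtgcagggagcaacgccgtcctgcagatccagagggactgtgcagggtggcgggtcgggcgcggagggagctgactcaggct
The Zfp367 promoter, at 64.0% GC with 36 CpG, holds 3 CCAAT matches and 1 TCGCGA match. The Zfp871 promoter, at 49.0% GC with 12 CpG, holds 2 CCAAT matches. That of Zfp458, at 55.7% GC with 9 CpG, holds 1 CCGGAAG match. Of the 246 members, 209 have a promoter in this RefSeq table. CCGGAAG was found in 21.5% of them against 9.12% of all 27025 promoters of the same length, ATGGCGG in 12.0% against 4.19%, ACTACAA in 8.13% against 3.45%, TCGCGA in 6.22% against 2.58%, and CCAAT in 46.9% against 37.9%. The members' promoters had a median of 15 CpG against 7 over all promoters, and a median GC content of 55.3% against 52.7%. The members were chosen by their expression in CCD, while the set of all promoters was not filtered by expression. Promoters of other genes expressed at like levels were not compared. Whether these differences are particular to numbered Zfp genes was thus not tested. A match is a description of letters, not evidence that a factor binds there.

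The set is mixed at the protein level, as read from the longest coding sequence of each gene in GENCODE vM21. Of 244 members with a coding sequence, 240 held at least 1 C2H2 finger pattern; the other 4 were Zfp839, Zfp330, Zfp503 and Zfp750. A KRAB pattern was found in 133 members and not found in 111, and 8 members held a SCAN pattern, a domain through which such proteins pair. A fixed pattern of letters can miss a domain, so members in which none was found may still have one. With and without KRAB refer here to the pattern alone. The median was 12 fingers with KRAB and 7 without, and the highest count was 36. Among the 118 numbered Zfp genes under the threshold that have a coding sequence, 83 held a KRAB pattern. Members stood mostly on chromosome 7 (62), chromosome 17 (34), chromosome 8 (21), chromosome 13 (17) and chromosome 9 (14). In 16 runs of at least 4 members less than 1 Mb apart lay 123 of the 246; the longest, on chromosome 17 from Zfp160 to Zfp13, held 20 members, 18 of them with KRAB.

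The dissected segments carried the markers of their labels. The summed TPM of 6 S1 genes ranged from 6495 to 15377 over PT-S1 animals and from 9.98 to 78.0 over CCD animals. The sum of 4 genes of the S3 part of the proximal tubule was uneven between PT-S1 animals. At 24 h it was 92.8 to 169 TPM in sham animals and 59.4 to 422 TPM after UNx. At 72 h it was 27.5 to 476 TPM in sham animals and 25.3 to 138 TPM after UNx. Its part in the PT-S1 results was not tested. The sum of 6 principal cell genes ranged from 18746 to 61903 in CCD and from 27.9 to 113 in PT-S1. Genes of the thick ascending limb (of which Kcnj1 is also known from principal cells) summed to 761 to 5146 TPM in CCD, and leukocyte genes to 34.6 to 400 TPM over all animals. No marker gene of any list passed the test between sham and UNx. At 24 h the principal cell sum in CCD was 19291 to 45917 TPM in sham animals and 42672 to 61903 TPM after UNx, and its part in the CCD results was not tested. In tissue pieces such as these, fewer cells of a type and less RNA per cell cannot be told apart. Since only TPM values were analysed, the read depth of each library is unknown.

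Of the 69 libraries, 5 stood apart from the others of their table, with a median correlation of log2 values under 0.92. In PT-S1 at 72 h they were a library of UNx animal 1 (0.825) and a library of UNx animal 2 (0.844). In these the members' median was 0.880 TPM and 0.995 TPM and only 9247 and 9632 genes reached 1 TPM. In PT-S1 at 24 h they were a library of sham animal 1 (0.824), with a members' median of 11.6 TPM, and a library of sham animal 3 (0.904), with 2.16 TPM. In CCD at 72 h it was a library of sham animal 1 (0.914), with 6.75 TPM. The counts over the members and the leading genes are given with and without them.

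Expression of the members was low and differed between segments. In sham animals the median member stood at 13.4 TPM (24 h) and 11.3 TPM (72 h) in CCD, and at 5.53 TPM and 4.53 TPM in PT-S1. The tables may have been normalized separately, so levels set across them carry no test. At least 5 TPM was reached by 246 and 229 members in CCD, as the rule demands for the former, and by 132 and 118 in PT-S1 at 24 h and 72 h. At least 50 TPM was reached by 20 and 15 members in CCD and by 6 and 4 in PT-S1. Within an animal the median member stood at the 38.4th to 42.7th percentile of the genes tested in CCD and at the 24.8th to 29.8th in PT-S1, a ranking that does not depend on the scale of a table. At 72 h, 242 of the 246 members had a lower sham mean in PT-S1 than in CCD, 157 of them by more than 1 log2 unit, with a median log2 ratio of -1.13. A choice by CCD levels favours members that are high in CCD, at 72 h too. Of all 10330 genes with at least 5 TPM in CCD sham animals at 72 h, 84.8% were lower in PT-S1, with a median ratio of -0.89. Of the 120 numbered Zfp genes with at least 5 TPM in PT-S1 sham animals at 72 h, a choice made on the other side, 115 were lower in PT-S1 (median -0.94), beside 73.4% of all 8597 genes chosen in that way (median -0.59). The same median at 24 h, with the sham values that chose the set, was -1.18. The order of the members was much alike in both segments, with a Spearman rho of 0.83 across the 246 genes at 72 h, given as a description over genes that share libraries.

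**Figure D1:**
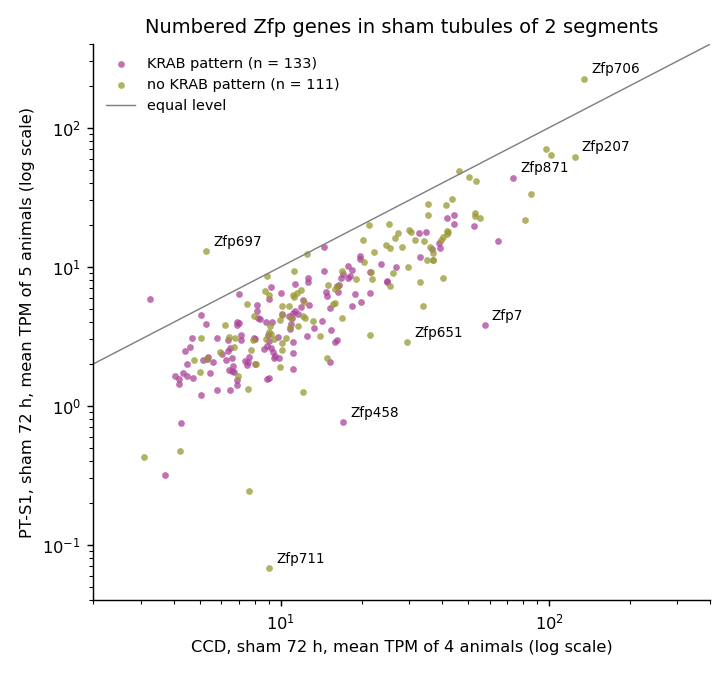
Mean TPM of the members with a coding sequence in sham animals at 72 h on log axes, with CCD (4 animals) on the horizontal and PT-S1 (5 animals) on the vertical axis; colours mark members with a KRAB pattern (133) and without one (111), and the line marks equal levels. All but 4 points lie below the line, and the members that stand highest on 1 axis stand high on the other.

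Zfp706, a short protein with 1 finger pattern, was the most abundant member. Its sham means were 268 ± 50.2 TPM (SD, n = 3) and 225 ± 20.2 TPM (n = 5) in PT-S1 and 173 ± 8.86 TPM (n = 4) and 135 ± 23.6 TPM (n = 4) in CCD, at 24 h and 72 h, so it was 1 of the 4 members not lower in PT-S1 at 72 h. The other 3 were Zfp697 (12.9 ± 3.68 TPM in PT-S1, 5.26 ± 0.536 TPM in CCD), Zfp101 (5.84 ± 0.968 and 3.24 ± 0.625 TPM) and Zfp444 (48.7 ± 9.16 and 46.0 ± 4.05 TPM, ranges that overlap within their SD). Next in CCD at 24 h came Zfp207, whose product BuGZ binds spindle microtubules, at 129 ± 8.69 TPM (n = 4), Zfp467 at 116 ± 17.4, Zfp637 at 102 ± 12.6, Zfp871 at 85.8 ± 9.60 and Zfp672 at 82.0 ± 8.61 TPM. The SDs of neighbours in this order overlap from Zfp207 to Zfp672, and Zfp706 alone stands clear of the next.

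At the other end stood the members with the lowest ratio of PT-S1 to CCD at 72 h. Zfp711, an X-linked gene whose product recruits the histone demethylase PHF8, was at 0.0677 ± 0.0455 TPM (n = 5) in PT-S1 and 9.04 ± 0.520 TPM (n = 4) in CCD. Zfp458 was at 0.759 ± 0.176 and 17 ± 3.54 TPM, Zfp7 at 3.79 ± 1.11 and 57.5 ± 12.3 TPM, and Zfp651, also named Zbtb47, at 2.86 ± 0.876 and 29.6 ± 15.9 TPM. The last 2 were not low for members in PT-S1, where the lower quartile was 2.60 TPM. The wide SD of Zfp651 in CCD came from animals at 14.3, 19.0, 37.0 and 48.4 TPM. Within CCD at 72 h, the only table ranked in this way, the other members that varied most among sham animals were these: Zfp687, a partner of the chromatin reader Zmynd8, at 7.83, 15.2, 36.9 and 26.4 TPM, Zfp236 at 4.74, 19.1, 8.73 and 10.2 TPM, and Zfp395 at 5.71, 5.36, 12.4 and 17 TPM. The lowest value of Zfp687 and of Zfp236, and that of Zfp651, belonged to sham animal 1, which held the library that stood apart in that table. In the 4 UNx animals Zfp687 ran from 16 to 18.8 TPM and Zfp651 from 31.3 to 41.5 TPM. Since these genes were picked for a wide spread among sham animals, a narrower one after UNx says nothing about UNx.

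Between UNx and sham, the fit was made on all genes with a mean of at least 1 TPM, with limma on log2(TPM + 1) of the animals and Benjamini-Hochberg adjustment over all genes tested. Changes are log2 differences on that scale, which understates the change of low genes. In PT-S1 at 24 h, most members had lower means after UNx but none passed. Of 238 members tested, 217 were lower and 21 higher, with a median change of -0.29 (quartiles -0.46 and -0.13). Over all 11874 genes 70.9% were lower and the median was -0.19. At an adjusted p under 0.05, 0 members were called and 0% of all genes. At an unadjusted p under 0.05, 41 members were lower and 0 higher, where 15.2% of all genes were lower and 2.59% higher. All UNx animals lay below all sham animals for 41 of 238 members, against 12.1% of all genes, and above them for 2, against 2.79%. With animals weighted by how well they follow their group (limma's arrayWeights), 29 of 238 members were called here (12% of all genes), and 18 of 239 in PT-S1 at 72 h (11.3%). With the 2 libraries that stood apart left out, 220 of 238 were lower with a median of -0.26 (all genes -0.21, 77.1% lower). Of the members 57 had an unadjusted p under 0.05 and a lower mean (23% of all genes). Without overlap of the groups 70 were lower (21.5%), and 0 were called (0.00847%).

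The 6 leading members by p in PT-S1 at 24 h all had lower UNx means and did not pass. Zfp651 measured 7.81, 6.64 and 4.31 TPM in sham animals and 1.75, 2.42, 2.44 and 2.77 TPM after UNx, which amounts to -1.10 (SE 0.22, limma adjusted p = 0.228). The groups do not overlap, and its adjusted p was 0.0117 to 0.672 over the alternatives run. Zfp618, a partner of the hydroxymethylcytosine reader Uhrf2, measured 12.6, 10.8 and 7.72 TPM in sham animals and 4.75, 4.63, 5.29 and 5.04 TPM after UNx (change -0.89, limma adjusted p = 0.228), again without overlap. Zfp629 measured 5.48, 4.05 and 2.08 TPM against 1.08, 1.66, 0.750 and 1.2 TPM (change -1.02, limma adjusted p = 0.254). The change was -0.76 for Zfp949, -0.72 for Zfp740 and -0.49 for Zfp523, a relative of Zfp143 that can bind the same promoter element, each with a limma adjusted p of 0.254. The highest positive change was that of Zfp825, 5.44 ± 0.384 TPM (n = 3) in sham and 6.88 ± 0.475 TPM (n = 4) in UNx animals (0.34, limma adjusted p = 0.318), which was 0.15 without the libraries that stood apart, behind Zfp948 (0.19), Zfp809 (0.18), Zfp938 and Zfp873 (0.16 each). In that setting the changes of Zfp651, Zfp618 and Zfp629 were -1.0, -0.95 and -1.03, each with a limma adjusted p of 0.0793. Several large sham means in this table rest on sham animal 1: it measured 126 TPM of Zfp871 where the other sham animals had 52.2 and 45.9 TPM, and 32.5 TPM of Zfp367 where they had 10.8 and 13.3 TPM.

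**Figure D2:**
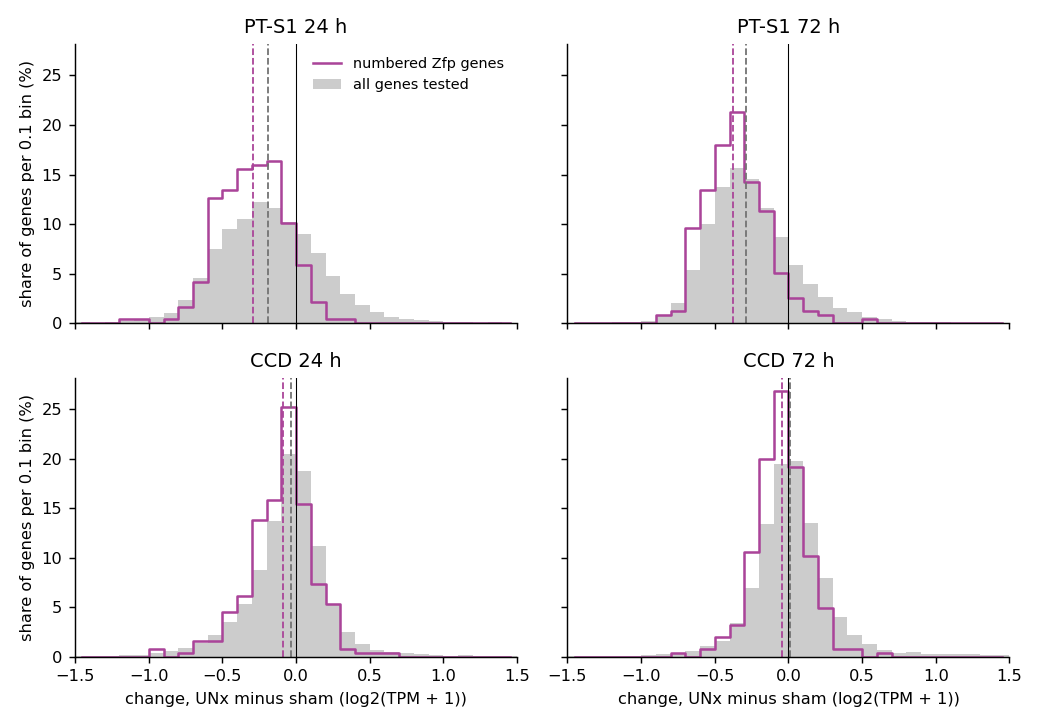
Distribution of the log2 change between UNx and sham animals in each of the 4 tables, for the members (outline) and for all genes tested (filled), each as a percent of its own set per bin of 0.1; dashed lines mark the medians. The members' medians are -0.29, -0.38, -0.09 and -0.05 against -0.19, -0.29, -0.04 and 0.01 over all genes.

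In PT-S1 at 72 h, 227 of 239 members tested had lower means after UNx and 12 higher, with a median change of -0.38 (quartiles -0.50 and -0.24). Over the background 83% of all 11886 genes were lower and their median was -0.29. By limma, 0 members and 0% of all genes were called. At an unadjusted p under 0.05, 89 members were lower (19.1% of all genes were) and 0 higher (1.33%). In addition, 26 members had UNx animals all below the sham animals (5.33% of all genes) and 0 all above (0.236%). This rested largely on 2 libraries. Without the libraries of UNx animals 1 and 2 that stood apart, 168 of 239 were lower and the median was -0.09 (all genes -0.02, 54% lower). Then 16 were lower and 1 higher at an unadjusted p under 0.05 (8.1% and 9.6% of all genes), 6 did not overlap and were lower (1.62%), and 0 were called (0.00837%). The mean deviation of the members from the sham mean was -0.68 in UNx animal 1 and -0.62 in animal 2, and -0.14, -0.16 and -0.19 in the other 3. Over all genes it was -0.63 and -0.54 against -0.02, -0.05 and -0.02.

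**Figure D3:**
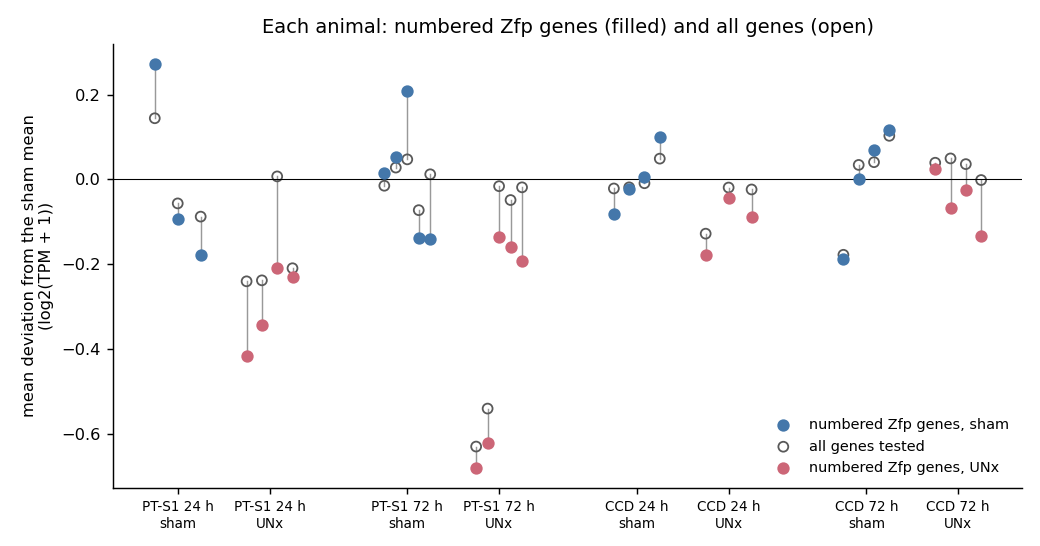
Mean deviation of the log2(TPM + 1) values of the members (filled points, coloured by group) and of all genes tested (open points) from the sham mean, for each animal of the 4 tables; a grey line joins the points of an animal. In PT-S1 at 72 h, UNx animals 1 and 2 lie far below the rest, at -0.68 and -0.62 for the members, and the open points of both animals lie close to the filled ones.

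The 6 leading members by p in PT-S1 at 72 h each had a limma adjusted p of 0.237. Zfp454 measured 2.02, 2.06, 3.13, 1.74 and 1.98 TPM in sham animals and 1.15, 1.18, 1.23, 1.12 and 1.24 TPM after UNx, a change of -0.59, with no overlap and a narrow UNx range. Zfp592, which works with Zmynd8 and Zfp687 in a chromatin complex, measured 6.59, 9.43, 10.5, 6.65 and 7.98 TPM in sham animals and 4.72, 3.73, 6.45, 4.40 and 5.05 TPM after UNx (change -0.83). Zfp821 measured 12.8, 11.1, 16.8, 11.9 and 11.3 TPM in sham animals and 5.84, 6.17, 9.02, 7.99 and 8.47 TPM after UNx (change -0.81). For all 3 every UNx animal lay below every sham animal. Zfp644, a subunit that guides the G9a and GLP histone methyltransferases, measured 17.4, 9.79, 18.1, 11.8 and 12.4 TPM against 8.28, 7.70, 9.25, 7.51 and 9.54 TPM (change -0.61). Zfp612 was at 8.56 ± 1.36 and 5.36 ± 1.02 TPM (SD, n = 5 each; change -0.67), and Zfp605 had a change of -0.52. Without the libraries that stood apart the change of Zfp454 was -0.31, of Zfp592 -0.35, of Zfp821 -0.43 (limma adjusted p = 0.209), of Zfp612 -0.34 and of Zfp644 -0.43. Over all libraries Zfp87 (0.54) and Zfp672 (0.21, limma adjusted p = 0.41) had the highest positive changes of the table, and without those that stood apart they were at -0.0017 and -0.02.

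In CCD at 24 h, the table whose sham values chose the members, the comparison is a description only. Of 246 members 172 had lower and 74 higher UNx means, with a median change of -0.09 (quartiles -0.22 and 0.02), beside 58.2% lower and a median of -0.04 over all 13775 genes. Past the adjusted threshold were 4 members, all lower, where 0.987% of all genes were called. In addition, 34 members were lower and 9 higher without overlap of the groups (9.51% and 5.55% of all genes). The numbered Zfp genes with at least 5 TPM in CCD sham animals at 72 h were also counted, a choice made without this table. These 230 genes gave 158 lower, a median of -0.08 and the same number called. They shared 229 genes with the set, so a like result was all but fixed and is no check on the choice of members.

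Zfp871, a KRAB protein with 15 finger patterns encoded on chromosome 17, showed the widest gap of the 4 in TPM. It measured 97.9, 82.6, 87.7 and 75 TPM in sham animals and 43.3, 46.2 and 46.6 TPM after UNx (85.8 ± 9.60, n = 4, and 45.4 ± 1.79, n = 3; change -0.90). Every UNx animal lay well under the lowest sham animal. Zfp458, a KRAB protein with 20 finger patterns, measured 30.2, 30.7, 34 and 30.6 TPM in sham animals and 17.6, 21.3 and 18.6 TPM after UNx (change -0.70). Zfp644 measured 34, 33.9, 39.1 and 31.5 TPM in sham animals and 20.0, 20.9 and 24.7 TPM after UNx (change -0.65). Zfp326, part of the DBIRD complex that links transcript elongation to splicing, measured 13.1, 12.8, 11.0 and 10.6 TPM in sham animals and 7.70, 6.74 and 7.13 TPM after UNx (change -0.67). In each of the 4 the groups lie apart. With an animal left out, 0 to 2 members were called, so the count of 4 needs all 7 animals.

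Changes of like size without a call were seen for Zfp369, a homologue of a neurotrophin receptor interacting factor, with 13.2, 13.3, 12.5 and 15.4 TPM in sham animals and 4.21, 7.18 and 8.91 TPM after UNx (change -0.96), and for Zfp81, with 10.2, 9.93, 11.4 and 9.97 TPM against 5.45, 7.67 and 4.53 TPM (change -0.76). The UNx animals of both spread more widely than those of Zfp871. Among members with higher UNx means, the largest changes without overlap were 0.57 for Zfp358 (23.1 ± 4.31 and 34.2 ± 4.49 TPM), 0.37 for Zfp523 (46.4 ± 6.28 and 59.8 ± 0.809 TPM) and 0.33 for Zfp948 (8.77 ± 0.326 and 11.4 ± 1.75 TPM).

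In CCD at 72 h 1 member passed, and it was higher. Zfp367, whose promoter is printed above, is a protein with 2 finger patterns and no KRAB pattern. It measured 11.6, 12.6, 13.0 and 13.1 TPM in sham animals and 19.4, 19.9, 21 and 19.9 TPM after UNx. As means it stood at 12.5 ± 0.697 and 20.0 ± 0.687 TPM (SD, n = 4 each). Its change was 0.66 (SE 0.12, limma adjusted p = 0.0392), and the gap between the groups is many times their spread. Across the background 0.595% of genes were called, 80 of the 82 higher in UNx. The call was close to the threshold. It held in 6 of 19 alternatives, with limma adjusted p from 0.0167 to 0.168 (0.163 with the replicate block). When an animal was left out it held only without sham animal 1 (0.0402 to 0.168 over the 8 animals). The change stayed between 0.53 and 0.70 over all 19. Without the library that stood apart the change was 0.53 (limma adjusted p = 0.0629). Elsewhere Zfp367 did not pass. It was at 19.7 ± 3.12 and 21 ± 3.96 TPM in CCD at 24 h, at 18.9 ± 11.9 and 9.17 ± 1.04 TPM in PT-S1 at 24 h, and at 12.3 ± 2.19 and 10.6 ± 3.02 TPM in PT-S1 at 72 h.

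In CCD at 72 h as a whole, 157 of 246 members had lower UNx means and 89 higher, with a median of -0.05 (quartiles -0.15 and 0.05). Over the background 47.8% of all 13770 genes were lower with a median of 0.01. At an unadjusted p under 0.05, 8 were lower and 1 higher (2.82% and 4.66% of all genes), and the groups did not overlap for 6 lower and 4 higher members (1.54% and 3.23%). Without the sham library that stood apart, 205 of 246 were lower with a median of -0.17 (all genes -0.07, 63.2% lower). Then 37 were lower and 1 higher at an unadjusted p under 0.05 (8.64% and 5.53%), 24 lay lower and 2 higher without overlap (4.86% and 3.78%), and 1 was called (0.937%). That gene was Zfp612 (ENSMUSG00000044676), a KRAB protein with 16 finger patterns. It measured 15.1, 19.2, 19.1 and 18.8 TPM in sham animals and 13.7, 12.2, 13.1 and 11.5 TPM after UNx, with a change of -0.47 (SE 0.13, limma adjusted p = 0.276) over all libraries and -0.56 (limma adjusted p = 0.0339) without the one. Its adjusted p ran from 0.0339 to 0.739 over 19 alternatives.

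Zfp7, a KRAB protein with 16 finger patterns, measured 45.1, 71.5, 63.7 and 49.7 TPM in sham animals and 40.3, 42.1, 35.4 and 29.8 TPM after UNx (change -0.59, limma adjusted p = 0.337; -0.72 and 0.0502 without the library). Zfp830, known for a part in pre-mRNA splicing and in the survival of early embryos, measured 36.3, 34.6, 36.9 and 33.5 TPM in sham animals and 29.1, 29.9, 29.9 and 22.4 TPM after UNx (change -0.34, limma adjusted p = 0.473). Neither gene's groups overlap, and neither passed over all libraries. Zfp454 had a change of -0.49 (limma adjusted p = 0.531) and Zfp51 of -0.50 (limma adjusted p = 0.535). Zfp871, which was lower at 24 h, stood at 72.8, 55.2, 83.6 and 82.7 TPM in sham animals and 68.2, 65.1, 70.2 and 53.6 TPM after UNx at 72 h (change -0.13, limma adjusted p = 0.928), with groups that overlap.

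**Figure D4:**
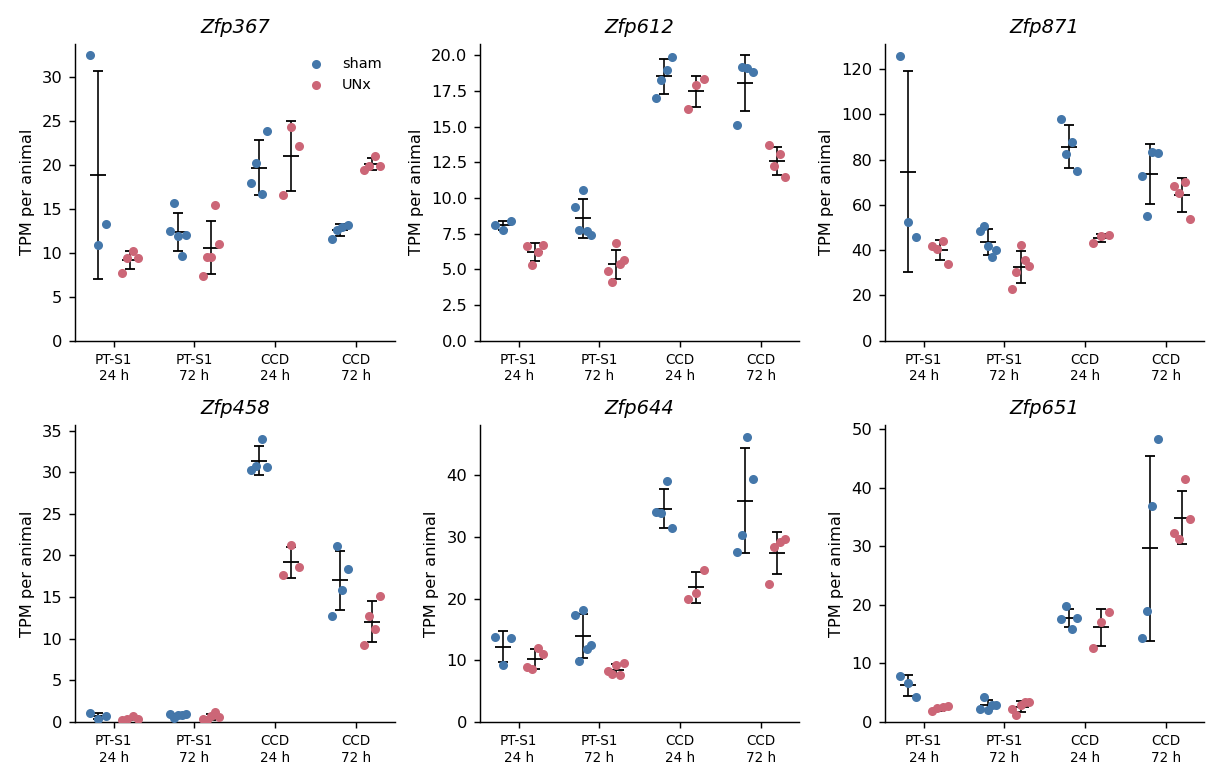
TPM of each animal (points) with the group mean and SD (bars) for Zfp367, Zfp612, Zfp871, Zfp458, Zfp644 and Zfp651 in the sham and UNx groups of the 4 tables. Zfp367 lies apart in CCD at 72 h, with sham animals from 11.6 to 13.1 TPM and UNx animals from 19.4 to 21 TPM, and Zfp871 in CCD at 24 h, with UNx animals from 43.3 to 46.6 TPM and the lowest sham animal at 75 TPM.

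Across the tables the counts of lower members are given beside those of all genes, and 1 of the 4 tables chose the set. Of the 238 members tested in every table, 42% were lower in all 4 (23.8% of all 10689 genes tested in every table), 87.8% in both PT-S1 tables (66.4%) and 48.3% in both CCD tables (33.3%). In the 3 tables other than CCD at 24 h 134 were lower throughout, 56.3% beside 33.2%. Higher in all 4 were 0 members and 3.34% of all genes. The shares of members without the libraries that stood apart were 41.2%, 66.4% and 60.9% beside 22.4%, 44.5% and 41.9% of all 10661 genes, so the count for PT-S1 rested in part on those libraries. The order of the members' changes was only weakly shared. Spearman's rho across members was 0.27 between the PT-S1 tables (n = 238), 0.24 between the CCD tables (n = 246), 0.16 between the segments at 72 h (n = 239), and -0.07 between the segments at 24 h (n = 238). No p is given, since the genes of a table share its animals.

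Tests of the differences of effect called no member over all libraries. Between 72 h and 24 h in PT-S1, 0 of 238 members passed by limma with Benjamini-Hochberg adjustment (0% of 11455 genes) and 4 had an unadjusted p under 0.05 (3.33% of all genes). The median difference was -0.07 beside -0.10 over all genes. Zfp651, with low UNx values at 24 h and near its sham level at 72 h (2.86 ± 0.876 and 2.58 ± 0.967 TPM), had the smallest p there, with a difference of 0.91 (SE 0.35, limma adjusted p = 0.998). Without the libraries that stood apart, 2 of 238 passed (1.63% of 11443 genes), both with a change at 24 h that was lower than at 72 h. They were Zfp618 (difference 1.12, SE 0.25, limma adjusted p = 0.0358) and Zfp629 (0.96, SE 0.23, limma adjusted p = 0.0428). The median difference was then 0.18 beside 0.20 over all genes. Between CCD and PT-S1 at 72 h, 0 of 239 passed (0% of 11035 genes), 24 had an unadjusted p under 0.05 (9.33%) and 218 had a difference above 0 (83.1%). The animals of the 2 segments carry the same numbers, so both segments may come from the same mice. The fit took them as separate animals, and a pairing between segments was not tested. The median difference was 0.32 beside 0.30. The smallest p values belonged to Zfp101 (0.77), Zfp367 (1.14, SE 0.34), Zfp592 (1.05), Zfp362 (0.62), Zfp219 (0.97) and Zfp260 (0.63), each with a limma adjusted p of 0.495. Without the libraries that stood apart these 6 differences were 0.45, 0.41, 0.24, 0.26, 0.29 and 0.19, with limma adjusted p from 0.326 to 0.73, and other members had the smallest p. The median difference between the segments was then -0.08 beside -0.06, and 0 members passed (0.0813%). The call of Zfp367 in CCD at 72 h is thus not shown to differ from its change in PT-S1.

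By role, 10 members are known for work on RNA, ribosomes or mitosis. Of these, 10 had lower UNx means in PT-S1 at 24 h, 10 in PT-S1 at 72 h, 8 in CCD at 24 h, and at 72 h 10 in CCD, with median changes of -0.26, -0.44, -0.09 and -0.11; apart from Zfp326 in CCD at 24 h none passed. Over all genes 70.9%, 83%, 58.2% and 47.8% were lower in the same order, with medians of -0.19, -0.29, -0.04 and 0.01. Without the libraries that stood apart, 9 of the 10 were lower in PT-S1 at 24 h and 9 of 10 at 72 h, where Zfp830 was at 0.07, with medians of -0.33 and -0.18 beside -0.21 and -0.02 over all genes. In CCD at 72 h 10 of 10 were lower with a median of -0.20 beside -0.07. Zfp622, a late factor in assembly of the large ribosomal subunit, was at 24.3 ± 3.03 TPM in sham animals and 16.5 ± 4.56 TPM after UNx in PT-S1 at 72 h (n = 5 each; change -0.65, limma adjusted p = 0.237) and at 57.1 ± 3.86 and 59.4 ± 3.16 TPM in CCD at 24 h. Zfp346, which binds double-stranded RNA, was at 7.37 ± 0.986 and 5.10 ± 1.28 TPM in PT-S1 at 72 h (change -0.59). Both had groups that did not overlap in that table. Their changes were -0.31 and -0.21 without the libraries that stood apart. Zfp598, the ubiquitin ligase that senses collided ribosomes, was at 3.08 ± 0.578 and 2.19 ± 0.404 TPM there, and Zfp593, also a ribosome assembly factor, at 6.26 ± 0.329 and 6.00 ± 1.06 TPM. Zfp106, an RNA-binding protein needed by motor neurons, was at 57.6 ± 14.8 and 34.1 ± 14.3 TPM in PT-S1 at 24 h. Zfp638 was at 37.3 ± 2.39 and 27.1 ± 5.78 TPM in CCD at 24 h, and Zfp330, a nucleolar protein, at 52.0 ± 1.66 and 49.0 ± 3.01 TPM. Zfp207 was at 125 ± 11.2 and 113 ± 11.3 TPM in CCD at 72 h, a difference near the SD of its groups.

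Members known for silencing of imprinted regions or retroelements numbered 5, and none passed in any table. On the log2 scale, where an animal's libraries are averaged as logs, the change was below 0 for 4, 5, 5 and 4 of them in PT-S1 (24 h, then 72 h) and CCD (24 h, then 72 h), with medians of -0.33, -0.30, -0.17 and -0.09. Over all genes 70.9%, 83%, 58.2% and 47.8% were lower, with medians of -0.19, -0.29, -0.04 and 0.01. Without the libraries that stood apart, the PT-S1 and 72 h CCD figures for these 5 members were 4, 4 and 5 lower with medians of -0.31, -0.02 and -0.19, beside -0.21, -0.02 and -0.07 over all genes. So at 72 h in PT-S1 their median was then that of all genes to 2 decimals, and Zfp445 had a change of 0.16 in place of -0.30. Zfp809, which silences retroviral DNA in embryonic stem cells, was at 52.3 ± 3.83 TPM in sham animals and 44.9 ± 3.60 TPM after UNx in CCD at 72 h (n = 4 each; change -0.21, limma adjusted p = 0.72), without overlap. Zfp445, which maintains imprints, was at 38.7 ± 5.26 and 37.3 ± 5.56 TPM there, a lower mean TPM with a log2 change of 0.04, and Zfp568, which represses a placental promoter of Igf2, at 4.67 ± 1.74 and 4.2 ± 1.05 TPM. Zfp932 was at 26.8 ± 6.39 and 23.4 ± 2.49 TPM and Zfp961 at 24.9 ± 2.90 and 24.4 ± 1.13 TPM, so 4 of the 5 had groups within their spread.

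The co-repressor machinery that KRAB proteins recruit was read from a list of 26 genes, none of them a member. Lower UNx means were found for 24 of 25 tested in PT-S1 at 24 h, 24 of 25 in PT-S1 at 72 h, 15 of 26 in CCD at 24 h, and at 72 h 9 of 26 in CCD, with medians of -0.37, -0.39, -0.09 and 0.05. Of all genes, 70.9%, 83%, 58.2% and 47.8% were lower in the same order, with medians of -0.19, -0.29, -0.04 and 0.01. Leaving out the libraries that stood apart gave counts of 23 of 25 and 15 of 26 in PT-S1 and of 16 of 26 in CCD at 72 h, with medians of -0.32, -0.04 and -0.06. Of all genes, 77.1%, 54% and 63.2% were then lower, with medians of -0.21, -0.02 and -0.07. Over all libraries 0, 0, 0 and 1 were called, beside 0%, 0%, 0.987% and 0.595% of all genes. The called gene was Uhrf1, which guides DNA methylation to newly copied DNA: it rose in CCD at 72 h from 5.34 ± 1.01 to 16.1 ± 1.95 TPM (n = 4 each; change 1.49, limma adjusted p = 0.0108; 1.33 and 0.0027 without the library that stood apart). Dnmt1, the maintenance methyltransferase, was at 11.9 ± 2.74 and 17.8 ± 1.34 TPM in the same animals (change 0.63, limma adjusted p = 0.351). Trim28 itself was at 59.8 ± 16.2 and 64.0 ± 6.81 TPM there (change 0.14, limma adjusted p = 0.938), and its change in PT-S1 at 72 h was -0.41 (limma adjusted p = 0.252). Setdb1 had a change of -0.66 in PT-S1 at 24 h (limma adjusted p = 0.254). Of the NuRD subunits in PT-S1 at 24 h, Mbd2 was at 63.1 ± 2.94 and 27.1 ± 17.1 TPM (change -1.41, limma adjusted p = 0.254), with changes of -0.88 for Mta1 and -0.82 for Gatad2a. These were named for their small p values, and the other subunits listed ran from -0.59 (Chd4) to 0.06 (Mbd3).

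Members with and without a KRAB pattern differed in level. The median sham level was 12.2 TPM with KRAB and 16.5 TPM without in CCD at 24 h, 9.51 and 15.9 TPM in CCD at 72 h, 4.45 and 7.67 TPM in PT-S1 at 24 h, and 3.83 and 6.95 TPM in PT-S1 at 72 h. Their median changes were -0.23 and -0.39 in PT-S1 at 24 h, and -0.35 and -0.44 at 72 h. For CCD they were -0.12 and -0.05 at 24 h, then -0.06 and -0.04 at 72 h. The class with the lower median was the one without KRAB in PT-S1 and the one with KRAB in CCD. In CCD at 24 h, 106 of 133 members with KRAB and 65 of 111 without had lower UNx means, and in PT-S1 at 24 h 112 of 129 and 103 of 107. Once the libraries that stood apart were left out, the medians with and without KRAB were -0.20 and -0.36 in PT-S1 (24 h), then -0.06 and -0.14 in its later table, and for CCD at 72 h -0.18 and -0.16. No test was made between the classes. Other features moved with the change as well. Spearman's rho across members was -0.40 between change and transcript length in PT-S1 at 24 h (n = 236) and -0.39 between change and sham level in PT-S1 at 72 h (n = 239), where the sham level enters both quantities. Their part in the difference between classes was not tested.

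**Figure D5:**
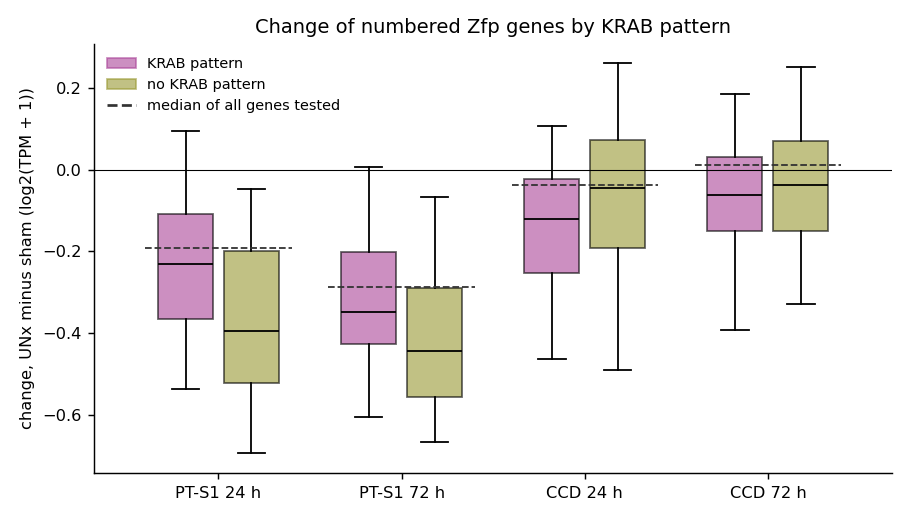
Log2 change between UNx and sham animals for members with a KRAB pattern (133 genes) and without one (111 genes) in each of the 4 tables; boxes span the quartiles with the median as a line, and dashed lines mark the median of all genes tested; whiskers reach the 5th and 95th percentiles. The medians are -0.23 and -0.39 for PT-S1 and -0.12 and -0.05 for CCD at 24 h, and the boxes overlap in every table.

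Genes of a run are described by their counts. In the run of 20 members on chromosome 17 from Zfp160 to Zfp13, 18, 19, 14 and 15 had lower UNx means in PT-S1 (24 h, then 72 h) and CCD (24 h, then 72 h), with medians of -0.31, -0.30, -0.05 and -0.10. A further run on chromosome 17 from Zfp871 to Zfp414, with 10 members of which 9 hold KRAB, had medians of -0.18, -0.33, -0.21 and -0.04. The run on chromosome 13 that starts with Zfp458 (9 members, all with KRAB) had -0.26, -0.10, -0.16 and 0.02, with 7 of its members tested in PT-S1. The medians of the 3 runs without the libraries that stood apart were 0.01, -0.05 and -0.10 in PT-S1 at 72 h, where 9 of 20, 6 of 10 and 5 of 7 were lower. They were -0.18, -0.15 and -0.23 in PT-S1 at 24 h and -0.19, -0.11 and -0.08 in CCD at 72 h. KRAB genes of 1 run share sequence, and reads from near-identical stretches could have been divided between them. Its part in these values was not tested.

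Over all libraries the medians of other zinc finger families were also below 0 in all 4 tables, except for the numbered Zfp genes under the threshold in CCD at 72 h. For PT-S1 and then CCD, each at the earlier and then the later time, the median change was -0.34, -0.36, -0.08 and -0.04 for Zbtb genes (29, 30, 40 and 39 tested), -0.36, -0.55, -0.10 and -0.03 for Zscan and Zkscan genes (13, 13, 18 and 18), and -0.37, -0.47, -0.13 and -0.14 for the Klf genes (11, 11, 12 and 12). For the numbered Zfp genes under the threshold it was -0.28, -0.26, -0.06 and 0.06 (21, 19, 66 and 65 tested). With the libraries that stood apart left out the medians in PT-S1 at 72 h were -0.04, -0.16, -0.17 and -0.09 in the order of these families. In CCD at 72 h they were then -0.14, -0.18, -0.25 and -0.03, beside -0.07 over all genes. The exception in sign was thus seen only with the sham library that stood apart. The members' median lay below that of all genes in each table (differences of -0.10, -0.09, -0.05 and -0.06 log2 units in the same order). The difference in CCD at 24 h is a description only, since the sham values of that table chose the members. Where the tables were rescaled so that all genes centred near 0, by quantile normalization or by median ratios, 142 and 156 of 238 members were lower in PT-S1 at 24 h in place of 217, and 172 and 181 of 239 at 72 h in place of 227.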

How the data were processed

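The authors deposited 4 tables of TPM values, 1 for each segment and time, made with STAR and RSEM 1.3.3 on build GRCm39 per the submitters' processing notes; the annotation release is not given in the sources used here. All 69 columns were used, 47 matched to 1 sample and 22 to a group by their names. TPM scale each library to the same total, so depth is unknown, and a change in a few abundant genes shifts all others.

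Values of an animal's libraries were averaged as log2(TPM + 1), and the number after Sham or UNx was read as the animal. Genes with a mean of at least 1 TPM were tested with limma 3.58.1 (R 4.3.3), with a variance trend, two-sided, and Benjamini-Hochberg adjustment over all genes of a table at a threshold of 0.05; the script was tested on simulated data. Means ± SD are over animals on the TPM scale. Whether animals came from separate litters or operations is not given here, so p-values measure the spread between these animals.

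Named members are the 6 with the smallest p in a comparison (or those called), the 6 with the largest change without overlap in CCD at 24 h, the 6 highest, those at the threshold, the 4 highest and lowest in the ratio of the segments, the 4 most variable, Zfp871, and members of the lists by role; others given were chosen after their values were seen. The members and lists were chosen with earlier results of these data known. A member's KRAB, SCAN and C2H2 patterns were searched in coding sequences of GENCODE vM21 (GRCm38), not the authors' build, and promoters came from RefSeq on GRCm38.p6. Alternatives covered the pseudocount, filter, scaling, unit of replication, weights, replicate block, animals left out, libraries that stood apart, and the member threshold.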

Additional observations from a re-analysis of the deposited data

Results flagged for a closer look

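In 11 of 150 groups of named members examined, 1 animal lay apart from the rest of its group by more than Dixon's 95% critical value; chance flags about 1 in 20 groups. The groups held 4 or 5 animals, and the causes were not tested.

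In PT-S1 at 24 h, UNx animal 3 had 8.43 TPM of Zfp592 where the others had 4.44 to 4.95 TPM. In PT-S1 at 72 h, sham animal 3 was high for 2 members: Zfp454 at 3.13 TPM (others 1.74 to 2.06) and Zfp821 at 16.8 TPM (others 11.1 to 12.8), both among the members with the smallest p in that table. Sham animal 2 had 0.455 TPM of Zfp458 (others 0.770 to 0.887). UNx animal 3 had 16.1 TPM of Zfp618 (others 4.97 to 6.95), and UNx animal 2, which held a library that stood apart, had 2.08 TPM of Zfp7 (others 2.64 to 2.85).

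In CCD at 24 h, sham animal 3 was high for Zfp81 at 11.4 TPM (others 9.93 to 10.2) and for Zfp458 at 34 TPM (others 30.2 to 30.7). In CCD at 72 h, sham animal 1, which held the library that stood apart there, had 15.1 TPM of Zfp612 (others 18.8 to 19.2). UNx animal 1 had 22.4 TPM of Zfp644 (others 28.4 to 29.6), and UNx animal 4 had 22.4 TPM of Zfp830 (others 29.1 to 29.9).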

How the results depend on the processing

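The members' median change lay below that of all genes in every alternative run (21, 24, 20 and 22 for PT-S1 at 24 h and 72 h and CCD at 24 h and 72 h). The 20 for CCD at 24 h are a description only, since the sham values of that table chose the members. In PT-S1 at 24 h that distance was -0.22 with no filter on low values; quantile normalization gave a median change of -0.0699, and scaling by median ratios one of -0.0911. These moved the median of all genes from -0.19 to -0.01 and 0.01. The count called there was 1 with every library as a replicate, 1 with the animal as a random effect (Zfp651 in both, limma adjusted p = 0.0349 and 0.0302) and 29 with array weights. In PT-S1 at 72 h the distance was -0.18 with a pseudocount of 0.1 and -0.30 with no filter; the median change was -0.12 with quantile normalization, -0.14 with median ratios and -0.0922 without the libraries that stood apart, and 18 members were called with array weights. In CCD at 24 h the count of 4 became 0 with no filter, 22 with every library, 12 with the random effect, 0 with the replicate block, and 0 to 2 with an animal left out. Taking every library as a replicate treats libraries of 1 animal as independent. The shares of all genes called with every library or with the random effect are not given here. Nothing about the members is therefore read from those counts. In CCD at 72 h the count of 1 became 0 with a filter at 5 TPM, with no filter, with every library, with the random effect and with the replicate block, and 0 to 1 with an animal left out; without the library that stood apart the median was -0.17 and the distance -0.10. For the difference between times in PT-S1, 2 members were called without such libraries. Whether replicate numbers pair the animals is not known. Correlations of same-numbered deviations ran from -0.37 to 0.33 and, with so few animals, cannot decide it. With the block, Zfp367 in CCD at 72 h had a limma adjusted p of 0.163. With an animal left out, the medians ran from -0.39 to -0.16, -0.44 to -0.30, -0.12 to -0.05 and -0.10 to -0.01. Of 504 values under alternatives of the leading members, each in the table it leads (Zfp871 in all), 478 kept their direction and side of the threshold, 13 lost and 13 gained a call, and 0 changed sign. Since the leading members were picked for small p or large change in those tables, a kept sign was all but fixed. In their other tables (same order) the sign changed in 30 of 282, 23 of 330, 28 of 306 and 29 of 323 values (11, 9, 7 and 6 members), 0 of them called. Except where a filter or fewer animals changed what was tested, the causes were not tested. Depth limits cannot be given for TPM.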
